A study of Drosophila melanogaster with 2 samples.

Results

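Near-start intron peaks are Ftz-F1 binding peaks whose summits lie inside a gene, in no exon, and more than 500 but at most 2000 bp from the nearest annotated transcript start on either strand. They were chosen by position alone from the peak list that the authors thresholded by irreproducible discovery rate (IDR, a measure of how well the ranks of peaks repeat across replicates), with chromosome X left out. The list holds 3416 peaks off X and 544 on it. The rule found 427 peaks, 12.5% of those off X (95% Wilson interval 11.4 to 13.7) and 10.8% of the whole list. The data are chromatin immunoprecipitation sequencing (ChIP-seq) of whole Drosophila melanogaster embryos of mixed sex aged 0 to 24 hours. The embryos came from a transgenic line that stably expresses Ftz-F1 with eGFP joined to its C-terminus, and an antibody against GFP was used. The labels give 1 group with 2 libraries, biological replicates 1 and 4, and no second genotype, treatment or age. They do not name the promoter that drives the fusion, and binding is averaged over all cells and stages of the embryo. Nothing in them says whether the replicates came from separate cultures, so the spread between replicates may be technical.

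Ftz-F1 is an orphan nuclear receptor that binds DNA as a monomer, through a nuclear receptor core that is extended at its 5' end. In the fly embryo it works with the homeodomain protein Fushi tarazu in segmentation, and later in development it makes tissues competent to respond to the steroid hormone ecdysone. First introns often hold enhancers and alternative promoters in flies, so summits near a start but outside the promoter are of interest as possible regulatory sequence. Here promoter means within 500 bp of any transcript start, and deep intron means an intron summit more than 2000 bp from every start. Sub-threshold peaks are entries of the pooled list of both replicates that are not in the IDR list. All positions are 1-based dm6 coordinates with gene models of Ensembl release 115.

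The sequence that Ftz-F1 is known to bind was written as 8 versions of a 9-letter site, CCAAGGCCA, CCAAGGCCG, CCAAGGTCA, CCAAGGTCG, TCAAGGCCA, TCAAGGCCG, TCAAGGTCA and TCAAGGTCG, sought on both strands. The following sequences run 50 bases to each side of the summit. They come from the release 6 reference (dm6) and belong to the 8 strongest near-start intron peaks that hold a whole site in that window, leaving out 1 chromosome arm from which no sequence is printed. Each is shown 5' to 3' on the strand given after its coordinates, with the site in capitals. In these peaks a whole site lies within 50 bases of the summit, which it need not cover.
PyK (chr3R:22368439-22368539, plus strand): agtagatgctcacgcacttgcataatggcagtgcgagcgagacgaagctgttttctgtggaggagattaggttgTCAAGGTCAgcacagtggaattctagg
Gpdh1 (chr2L:5944726-5944826, plus strand): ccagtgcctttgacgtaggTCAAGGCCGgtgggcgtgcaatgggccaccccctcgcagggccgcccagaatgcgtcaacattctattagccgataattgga
CG9674 (chr3L:16806519-16806619, minus strand): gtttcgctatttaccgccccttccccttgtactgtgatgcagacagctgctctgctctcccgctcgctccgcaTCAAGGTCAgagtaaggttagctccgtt
kel (chr2L:18136604-18136704, plus strand): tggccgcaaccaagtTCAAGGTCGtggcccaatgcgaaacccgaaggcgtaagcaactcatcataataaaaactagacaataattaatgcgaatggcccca
Hph (chr3R:5263353-5263453, plus strand): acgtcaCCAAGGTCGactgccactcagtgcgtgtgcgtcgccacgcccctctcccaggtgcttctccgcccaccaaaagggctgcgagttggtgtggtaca
Pax (chr2L:19402825-19402925, plus strand): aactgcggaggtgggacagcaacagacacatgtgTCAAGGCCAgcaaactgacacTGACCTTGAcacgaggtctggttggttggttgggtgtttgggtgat
Karybeta3 (chr3R:4650279-4650379, minus strand): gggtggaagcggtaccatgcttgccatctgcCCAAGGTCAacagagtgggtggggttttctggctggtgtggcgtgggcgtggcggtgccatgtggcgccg
scrib (chr3R:26570482-26570582, plus strand): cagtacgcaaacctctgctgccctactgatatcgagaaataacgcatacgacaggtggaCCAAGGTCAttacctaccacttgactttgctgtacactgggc

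The PyK and CG9674 windows hold the version TCAAGGTCA, the most frequent one among the near-start intron peaks, with 12 of 42 sites. Gpdh1 holds TCAAGGCCG, kel holds TCAAGGTCG, Hph holds CCAAGGTCG, and Karybeta3 and scrib hold CCAAGGTCA. Pax holds a pair of sites in opposite orientation, TCAAGGCCA and the reverse complement of TCAAGGTCA. The 3 strongest near-start intron peaks with no site within 100 bp of the summit are shown for contrast, with the same arm left out. Only exact matches were counted as sites, so these windows can hold near matches. In Rtnl1, tcaaggtta differs in a single letter from TCAAGGTCA. In COX7AL2, tcaccttgg differs in a single letter from the reverse complement of CCAAGGTCA. The frequency of near matches was not tested.
COX7AL2 (chr2L:2197061-2197161, plus strand): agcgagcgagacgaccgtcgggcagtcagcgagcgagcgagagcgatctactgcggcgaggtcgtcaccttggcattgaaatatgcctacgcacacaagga
Rtnl1 (chr2L:5001418-5001518, plus strand): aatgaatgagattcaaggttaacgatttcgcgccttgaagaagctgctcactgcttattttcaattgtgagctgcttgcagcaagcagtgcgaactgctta
ush (chr2L:481006-481106, plus strand): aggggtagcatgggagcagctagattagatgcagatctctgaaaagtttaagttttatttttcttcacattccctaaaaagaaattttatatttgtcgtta

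The strongest near-start intron peak was also the strongest peak of the whole list. It lay in intron 1 of COX7AL2 (FBgn0085201, chromosome arm 2L, minus strand, gene 2192525 to 2197912), which encodes a relative of a cytochrome c oxidase subunit. The summit at 2197111 was 801 bp downstream of the gene's start. The signal value, which is the authors' own and on a scale their files do not state, was 3557 in the pooled list, 1458 in replicate 1 and 2119 in replicate 4. It ranked 1 in all 3 lists. A further COX7AL2 summit in the same intron, at 2193636, had a pooled signal value of 389 (161 in replicate 1 and 233 in replicate 4) and ranked 175.

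The next strongest was in intron 1 of Dhc64C, which encodes the heavy chain of cytoplasmic dynein, at 3L 4824556 and 1131 bp from the start. Its signal value was 2092 pooled, 999 in replicate 1 and 1111 in replicate 4, and it ranked 5, 4 and 5. It holds the site version CCAAGGTCG, 94 bp from the summit. Rtnl1, which encodes a reticulon that shapes the endoplasmic reticulum, had a summit at 2L 5001468 with signal values of 1132 pooled, 578 in replicate 1 and 579 in replicate 4. In ush, which encodes a cofactor of GATA factors, the summit at 2L 481056 had values of 1053, 557 and 500.1, and the nearest start, 1368 bp away, was that of the neighbouring zinc finger gene cbt. These 4 peaks ranked 20 or better in both replicates.

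The 20 strongest near-start intron peaks included peaks in genes of known enzymes and a carrier. PyK, which encodes pyruvate kinase, had a summit in intron 1 at 3R 22368489, with signal values of 638 pooled, 344 in replicate 1 and 293 in replicate 4, and a site 28 bp from the summit. Gpdh1, which encodes glycerol-3-phosphate dehydrogenase, had a summit in intron 2 at 2L 5944776 with values of 407, 152 and 248 and a site. Inos, which encodes inositol-3-phosphate synthase, had a summit in its first intron with values of 444, 210.3 and 239 and a site. SCaMC, which encodes a mitochondrial carrier, had values of 486, 295 and 217 and no site. These genes were named by rank of signal, and no test was made of their shared function.

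The other peaks among the 20 lay in genes with varied roles. CG11050 (signal value 689 pooled, 287 in replicate 1 and 401 in replicate 4) was bound in intron 2, which is only 140 bp long. The other genes were kermit (495), which encodes a PDZ-domain protein, Alh (467), CG11357 (463, with a site), CG10383 (444), CG18135 (436), the axon guidance gene beat-Ib (425), the bromodomain gene BRWD3 (400), the nuclear receptor gene Eip75B (397), CG9663 (392) and the kinase gene Lk6 (392). Of these 20 peaks, 15 were in a first intron and 5 had a site. None ranked worse than 309 in replicate 1 or 232 in replicate 4.

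Over all 427 peaks the median signal value was 132 (quartiles 106.6 and 183.6, range 92.0 to 3557). Deep intron peaks had a median of 129 and promoter peaks 132. The strongest 990 peaks of the IDR list included 25.1% of near-start intron peaks, 23.4% of deep intron peaks and 25.5% of promoter peaks. Of the strongest 100 peaks, 8 were near-start intron, 20 deep intron and 46 promoter peaks. The 3 classes thus had like medians. No test was made of these values, since signal decided which peaks are in the list.

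Most near-start intron peaks were found in both replicates, but fewer were strong in both. All but 1 overlapped a peak of both replicates' full lists of 30000 entries. The exception was in Dys, which encodes dystrophin, at 3R 19585036, present in replicate 1 alone (signal value 54.9, rank 3068). Each replicate list was next cut to as many of its strongest peaks as the IDR list holds. Both of these top sets included 295 of the 427 (69.1%, 64.5 to 73.3), while 65 were in that of replicate 1 only, 64 in that of replicate 4 only, and 3 in neither. The corresponding share was 68.2% for deep intron and 70.7% for promoter peaks. The median rank was 1778 in replicate 1 and 1787.5 in replicate 4, and 208 of 426 peaks ranked better in replicate 1. Spearman's rank correlation between the replicates' signal values was 0.562 over these 426 peaks, a description over peaks of the same 2 libraries. The IDR list was made from these replicate lists, so none of this is separate evidence that they repeat.

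**Figure D1:**
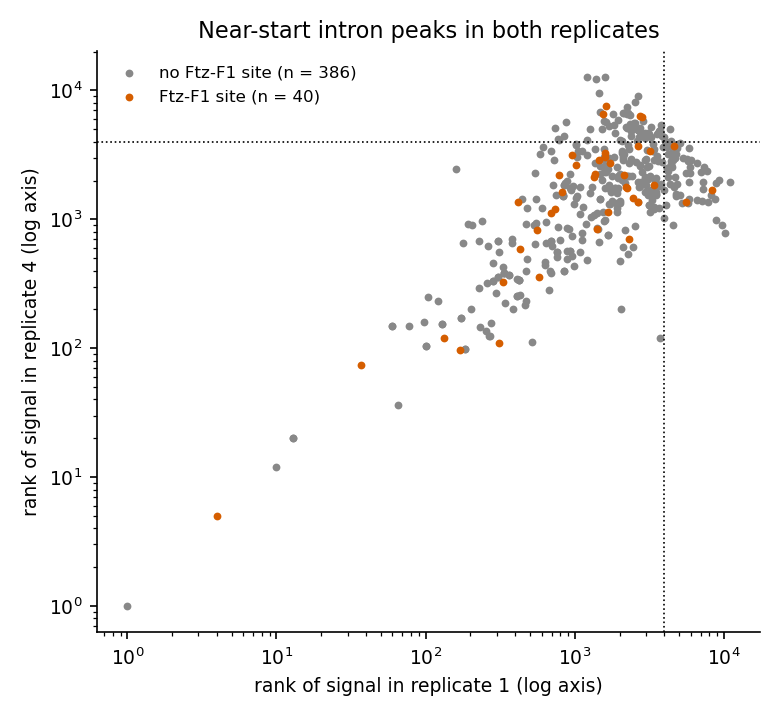
Rank of the signal value in replicate 1 (x axis, log) and replicate 4 (y axis, log) of the 426 near-start intron peaks found in both lists, with the 40 that hold a Ftz-F1 site in orange, and dotted lines at the rank that equals the length of the IDR list. The strongest peaks lie near the diagonal in both lists, and of the 426 plotted peaks 64 are within the line in replicate 1 only and 64 in replicate 4 only.

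The members with the largest ratio between the ranks of the replicates, 3 in each direction, were as follows. Pgi, which encodes phosphoglucose isomerase, ranked 1211 in replicate 1 (signal value 85.0) and 12663 in replicate 4 (22.4). SP1173 ranked 1393 (79.2) and 12301 (22.9), and MICU3, which encodes a mitochondrial calcium uptake protein, ranked 161 (197) and 2441 (63.6). In the other direction, 1 of 2 summits in mts, which encodes the catalytic subunit of protein phosphatase 2A, ranked 10132 (26.7) and 780 (108.5). The stronger mts summit, 746 bp away (pooled signal value 165), ranked 885 in replicate 1 and 1990 in replicate 4. In Cdep, 1 of 2 summits ranked 9787 (27.4) and 896 (102.5). A second summit in Inos, 199 bp from the one described above, ranked 3721 and 120, but both Inos summits take the same replicate 4 peak. Neighbouring summits often shared one: 51 of 427 peaks shared their replicate 1 peak with another near-start intron peak and 55 of 426 their replicate 4 peak. Sharing with IDR peaks of other classes was not counted. Where a stronger neighbour's replicate peak was taken, the replicate ranks and the share in both top sets include it.

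Near-start intron peaks were mainly in first introns. The summit was in intron 1 of at least 1 transcript of the host gene in 343 of 427 peaks (80.3%, 76.3 to 83.8). Of 491 deep intron peaks, 296 were in a first intron (60.3%). That difference is a description, since distance from a start defined both classes: first introns made up 64.2% of the intron bases in the near-start window and 36.3% of those farther away. Sub-threshold peaks of the same position were in a first intron in 2283 of 3018 cases (75.6%; odds ratio 1.31, adjusted p = 0.0336 over 2 comparisons, Fisher's exact test, two-sided). Their median distance from the start was 1126.5 bp, against 1027 bp. Peaks are not replicates, and p-values over peaks describe the lists. In every transcript that holds the summit it was in intron 1 for 233 peaks (54.6%), a measure that alternative first exons lower. Intron 2 was the lowest for 55 peaks, and intron 3 or higher for 29, up to intron 12.

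**Figure D2:**
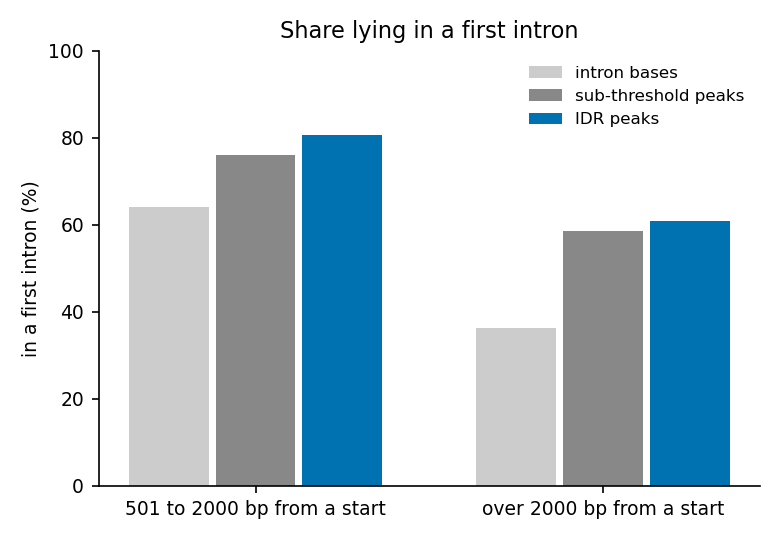
Share lying in the first intron of any gene (y axis, percent) for all intron bases, sub-threshold peaks and IDR peaks, in the near-start window (left) and over 2000 bp (right). By this measure 80.6% of near-start IDR peaks, 76.1% of sub-threshold peaks and 64.2% of bases were in a first intron, against 60.9%, 58.5% and 36.3% deeper in introns.

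The introns that held near-start summits had a median length of 3923 bp (quartiles 1778 and 9243, range 126 to 56758), and those of deep intron peaks 11640 bp, a difference that the distance rule favours. In 7 cases the intron was shorter than the peak, so the peak also covered exon sequence. The nearest start was that of the host gene for 360 of 427 peaks (84.3%, 80.6 to 87.5), and for 38 it belonged to a non-coding gene only. The summit was downstream of the nearest start for 269 peaks (63.0%) and upstream of it for 158. Among the 158 upstream summits, 108 were upstream of a start of the host gene itself. An IDR promoter peak lay at the same start for 146 of the 427 (34.2%, 29.9 to 38.8), against 23.4% for sub-threshold peaks of the same position and 39.1% for deep intron peaks. The near-start intron peak was weaker than that promoter peak in 80 of 146 cases and stronger in 66, with a median ratio of signal values of 0.947. At Dhc64C the intron peak (2092) was far above the promoter peak at the gene's own start (104). The beat-Ib peak (425) was far below the promoter peak at its nearest start (2093), which is that of the non-coding gene lncRNA:CR44867.

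The density of summits was lower farther from the start. IDR summits in introns numbered 56.6 per Mb of intron between 500 and 1000 bp, 42.8 between 1000 and 1500 bp, 36.3 between 1500 and 2000 bp and 25.9 between 2000 and 3000 bp. Sub-threshold summits numbered 345, 331, 299 and 239 per Mb in the same bands. These densities were not tested. The share of pooled peaks in the IDR list was 14.1%, 11.5%, 10.8% and 9.79% in turn. Over the whole window, 427 of 3445 pooled peaks were in the IDR list (12.4%, 11.3 to 13.5), beside 13.8% of the 24690 pooled peaks off X. That share was 21.6% for promoter, 9.62% for deep intron and 3.35% for exon peaks. The median distance of the 427 summits was 1027 bp.

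**Figure D3:**
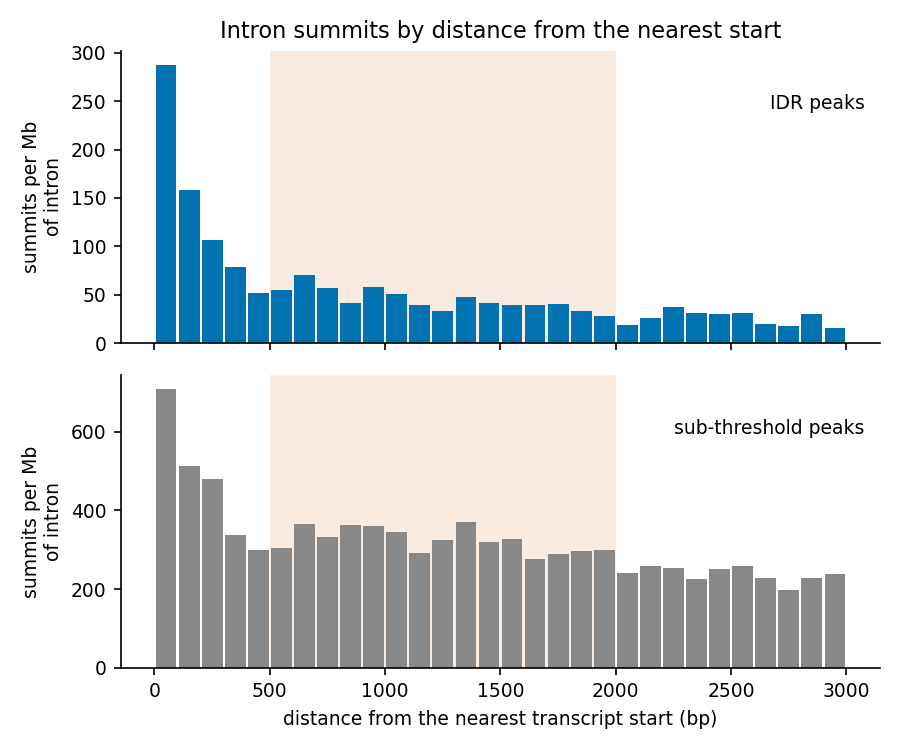
Intron summits per Mb of intron (y axis) in bands of 100 bp by distance from the nearest transcript start (x axis, bp), for IDR peaks (top) and sub-threshold peaks (bottom), with the near-start window shaded. IDR summits numbered 56.6 per Mb between 500 and 1000 bp and 36.3 between 1500 and 2000 bp.

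Across the arms the 427 peaks numbered 95 on 2L, 102 on 2R, 85 on 3L, 144 on 3R and 1 on chromosome 4. Per Mb of intron in the window this came to 45.9, 48.2, 36.9, 55.2 and 7.78. The members just inside the limits were a summit in kuk, 504 bp from a start (signal value 115), and one in grh, at 1996 bp (99.7). Just outside were an intron summit of larp at 500 bp (194) and one of Shrm at 2001 bp (124). The weakest member was in CG3764 (92.0, rank 3945), and the strongest sub-threshold peak of the same position in TyrR (91.7, rank 3967).

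The Ftz-F1 site was present at a minority of near-start intron summits and concentrated at their centres. Of 427 summits, 40 had it within 100 bp (9.37%, 6.95 to 12.5). Control windows of the same size, centred 500 bp farther from the start, held it in 2 of 427 cases (0.468%, 0.129 to 1.69). This 20-fold difference passed the two-sided exact McNemar test (39 peaks with the site at the summit only and 1 in the control only, adjusted p = 1.04e-09 over 14 motifs). The fold was 9.25 with replicate 1 left out and 44 with replicate 4 left out. It was 32 with windows of 50 bp each side, 6.11 with windows of 200 bp each side (12.9% and 2.11%), and 13.3 with controls 500 bp towards the start. The controls are mixed in position, with 286 centred in near-start introns, 71 in deep introns, 50 in exons and 20 in promoters. With only the 339 peaks whose controls were centred in introns and touched no other IDR peak, a choice made after seeing the data, the shares were 8.85% and 0.590%. In all windows of 201 bp tiled along near-start introns, 0.989% held the site. Of all 3416 IDR peaks off X, 6.35% held it.

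The site was more frequent at near-start intron summits than at promoter summits, and no difference from deep intron summits was detected. Deep intron peaks held the site in 49 of 491 cases (9.98%), and the difference of -0.612 percentage points (95% Newcombe interval -4.44 to 3.31) did not pass (odds ratio 0.932, adjusted p = 0.91, two-sided Fisher's exact test over 42 tests). Its direction changed in 9 of the alternative settings, in none of which it passed. Promoter peaks held it in 85 of 2106 cases (4.04%; difference 5.33 points, 2.75 to 8.56; odds ratio 2.46, adjusted p = 0.000127 by the same exact test). Sub-threshold near-start intron peaks held it in 96 of 3018 cases (3.18%; difference 6.19 points, 3.68 to 9.38; odds ratio 3.15, adjusted p = 6.55e-07, also exact). The pooled list also holds background, and 2079 of these 3018 entries overlapped a peak of both replicate lists. Their median GC content was 43.8%, against 47.3% at near-start intron summits of the IDR list, and its part was not tested. With the 427 split into 4 equal parts by signal value, from strongest to weakest, 13 of 107, 12 of 107, 10 of 107 and 5 of 106 held the site. The 40 site-bearing peaks had a median signal value of 146 and the other 387 a median of 129. They were in a first intron in 30 of 40 cases, and the others in 313 of 387.

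The 40 peaks held 42 sites, since Pax and CG11030 had a pair each. The median distance of a site from the summit was 27.5 bp, and 36 of 42 were within 50 bp. In the host gene's own direction read 22 of 42. The density of sites was 8.43 per 100 peaks in the 100 bp at the summit and at most 2.58 in any other bin of 100 bp centred up to 900 bp away. Deep intron peaks had 7.33 at the summit. After the peaks already named, the strongest with a site were in Cerk (309), which encodes ceramide kinase, CG9674 (270), and kel (260), which encodes an actin-binding protein of the ring canals. No sequence from arm 2R is printed, so the site-bearing windows of Inos (444), gcl (221) and shn (201), each with the site within 50 bp, are not among those shown. CG6330 held 3 near-start intron summits, and 2 of them had a site.

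**Figure D4:**
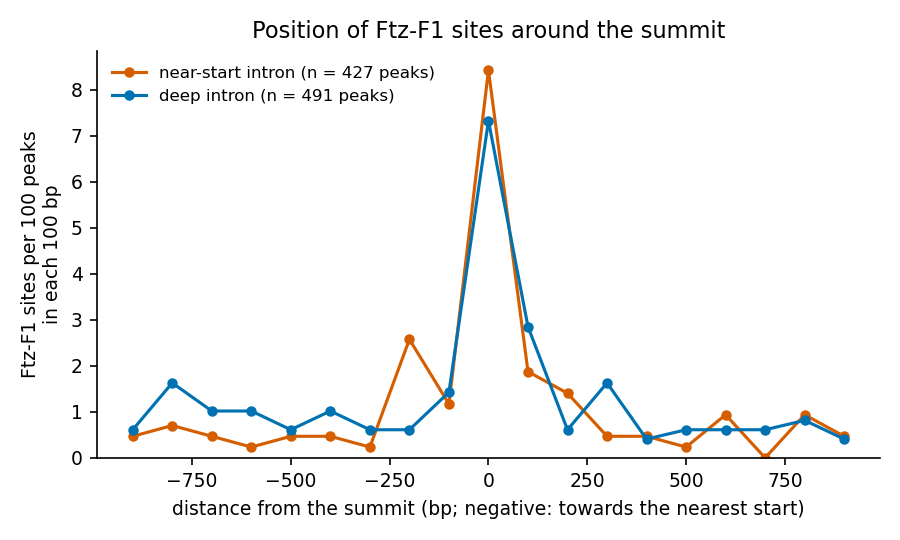
Ftz-F1 sites per 100 peaks in bins of 100 bp (y axis) by distance from the summit (x axis, bp, negative towards the nearest start), for 427 near-start intron peaks and 491 deep intron peaks. Both lines peak at the summit, at 8.43 and 7.33, and stay below 3 in every other bin.

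Other sequences also differed between summits and control windows. Of 14 motifs, 6 passed the exact McNemar test. Besides the site these were its 8-letter core CAAGGTCA (26 summits, 0 controls, exact adjusted p = 2.09e-07), the nuclear receptor core AGGTCA (70 and 23, adjusted p = 9.83e-07), the GAGA factor sequence GAGAGA (79 and 43, 18.5% and 10.1%, adjusted p = 0.00124) and the repeat CACACACA (41 and 17, adjusted p = 0.00262). All of these were more frequent at summits, and CAAGGTCA and AGGTCA overlap the site. The homeodomain core TAATTA was less frequent at summits (36 and 62, 8.43% and 14.5%, exact adjusted p = 0.0188). The reversed letters of the site (5 summits and 3 controls), the Zelda sequence CAGGTAG (8 and 6), the GATA sequence AGATAA (53 and 73), the E-box CAGCTG (49 and 39), the Grainyhead sequence AACCGGTT (2 and 2) and the AP-1 sequence TGACTCA (11 and 11) did not pass. Base composition also differed: the median GC content was 47.3% at summits and 39.3% in control windows, higher at the summit in 319 peaks and lower in 104, and its part in these differences was not tested. In all windows of 201 bp tiled along near-start introns, CAAGGTCA was in 0.581%, AGGTCA in 5.43%, GAGAGA in 7.68%, CACACACA in 4.53% and TAATTA in 15.6%. Of all IDR peaks off X, 3.89% held CAAGGTCA, 11.1% AGGTCA, 15.2% GAGAGA, 8.61% CACACACA and 7.55% TAATTA. The near-start intron shares of CACACACA (9.60%) and TAATTA (8.43%) were thus near those of all IDR peaks off X. None of the motifs other than the reversed site was found at 167 summits (39.1%).

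Core promoter elements were rare at near-start intron summits. TATCGATA, bound by DREF, was at 0 of 427 (Wilson upper limit 0.892%), at 0.407% of deep intron summits and at 5.75% of promoter summits. GGTCACACT, bound by M1BP, was at 1 of 427 (0.234%), at 0 of 491 deep intron summits and at 5.51% of promoter summits. These are descriptions, since the classes were defined by distance from a start: tiled windows held TATCGATA in 0.408% of cases in near-start introns and 1.44% at promoters, and GGTCACACT in 0.0764% and 0.912%. The E-box was less frequent than at promoters (11.5% against 17.0%, adjusted p = 0.0197, two-sided Fisher's exact test), while AGGTCA (16.4% against 7.36%, adjusted p = 4.98e-07), CAAGGTCA (6.09% against 2.33%, adjusted p = 0.000589) and GAGAGA (18.5% against 13.5%, adjusted p = 0.038) were more frequent. Tiled windows also held the E-box less often in near-start introns (7.66%) than at promoters (9.71%). Their shares were closer for AGGTCA (5.43% and 5.18%), CAAGGTCA (0.581% and 0.558%) and GAGAGA (7.68% and 7.70%). Against sub-threshold peaks of the same position, the site, CAAGGTCA, AGGTCA and GAGAGA were more frequent (GAGAGA 18.5% against 11.4%, exact adjusted p = 0.000398). Against deep intron peaks none of the 14 passed. The lowest adjusted p was 0.181, for CACACACA (9.60% against 13.6%).

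**Figure D5:**
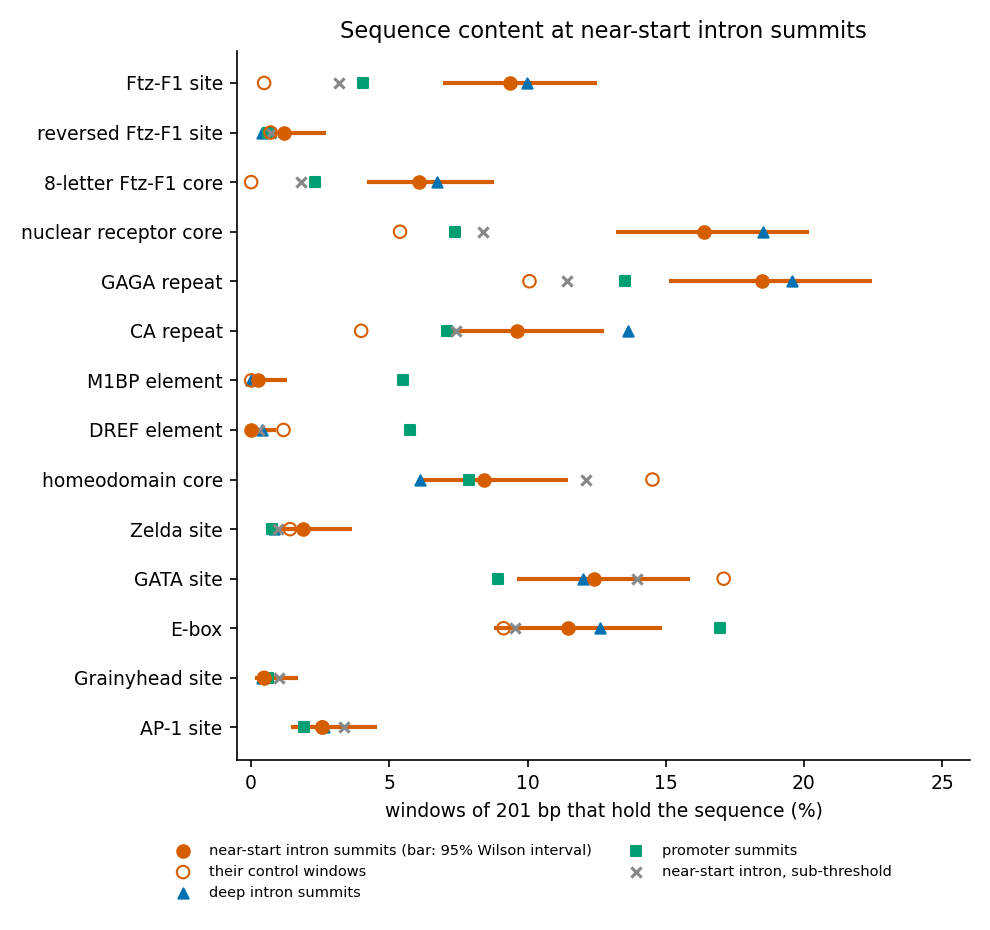
Share of windows of 201 bp that hold each of 14 sequences (x axis, percent) at near-start intron summits (filled orange, with 95% Wilson intervals), their control windows, deep intron summits, promoter summits and sub-threshold near-start intron peaks. The Ftz-F1 site is at 9.37% of near-start intron summits and 0.468% of controls, and the DREF element at 0 and 5.75% of promoters.

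With 1 host counted for each peak, the 427 peaks lay in 346 host genes, 424 of the peaks in protein-coding genes and 3 in non-coding ones. A further gene also covered the summit for 27 peaks. A single near-start intron peak was in 287 genes, 44 held 2, and 15 held 3 or more. The ubiquitin ligase adaptor gene rdx held the most with 7 (signal values 93.6 to 287, 19 IDR summits in the gene in all). EcR, which encodes the ecdysone receptor, held 5 (92.9 to 184), in introns numbered 3 or higher, some nearer to a tRNA gene's start than to its own. The axon guidance gene beat-Ib held 4 (153 to 425), within 3640 bp. Genes with 3 were COX7AL2, ush, Eip75B, Lk6, fru, CG6051, ps, shn, CG6330, neb, CG32425 and cnc. Several of these summits were about 200 bp apart (199 bp in Lk6, 201 bp in fru), and 62 of the 427 peaks overlapped another IDR peak. No other IDR summit was in the host gene for 141 peaks.

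Host genes were described by function with 8 gene lists, counting the 7535 protein-coding genes off X that have intron sequence in the window. Of these, 361 (4.79%) held a near-start intron peak, a count in which every gene that covers a summit is included. A gene with more such sequence held one more often: 0%, 0.159%, 4.41% and 14.6% in 4 equal parts of the genes by rising length of it, with a median of 370 bp over all genes. No test was made of these lists, which were chosen with earlier results of these data known.

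Of genes for insulin, TOR and nutrient metabolism, 14 of 30 held a near-start intron peak, with a median of 1254 bp of such sequence per gene. Their strongest hosts were PyK (638), S6k (321), which encodes the ribosomal protein S6 kinase, and Pi3K92E (251), the catalytic subunit of a phosphoinositide 3-kinase. S6k held a second peak (129) in its intron 9.

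Of signalling pathway genes, 9 of 37 held one (median 3020 bp), led by mam (224), a Notch coactivator, the insulin receptor gene InR (208), which is also in the metabolism list, and shn (201), a zinc finger factor of Dpp signalling. Of ecdysone response genes 5 of 21 did (median 3299 bp), led by Eip75B (397), ImpL2 (193), an insulin-binding protein gene, and EcR (184), with Blimp-1 (163) and Kr-h1 (109) below them. Of chromatin and transcription regulators 6 of 37 did (median 1039 bp), led by Trl (295), which encodes GAGA factor, Sin3A (196), a corepressor gene, and osa (190).

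In each of the other lists 4 genes or fewer held a near-start intron peak. Of translation and RNA-binding regulators 4 of 26 held one (median 3227 bp), led by mub (171), Pabp2 (169) and pAbp (132). Of cell adhesion and septate junction genes 1 of 18 did, scrib (170), a polarity gene (median 2656 bp). Of segmentation genes 1 of 24 did, cnc (138), and of axon guidance and synapse genes 1 of 32, beat-Ib (425), although the last list had a median of 3475 bp of such sequence. The share was 15.4% for translation and RNA-binding regulators. For cell adhesion (5.56%), segmentation (4.17%) and axon guidance genes (3.1%) it rested on 1 gene each and was near the 4.79% of all genes. The lists also differ in the amount of intron sequence.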

How the data were processed

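Peaks were taken from the lists the authors deposited in dm6. Each gives a signal value per peak, made by the authors on a scale not given in the sources used here; aligner, peak caller and IDR threshold are also not given there. Per the file listing, each replicate list and the pooled list (30000 entries each) hold peaks and background, and the IDR list (3416 peaks off X) derives from them with a control library. The dm3 lists were not used. Read depth is unknown, so intervals cover counting error only. The members, gene lists, motifs and tests were chosen with earlier results of these data known.

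Summits were classed with Ensembl release 115 (BDGP6.54), transposable element models left out. Replicate ranks came from the strongest replicate peak overlapping by 1 bp or more. Motifs were matched in the release 6 genome, on both strands, up to 100 bp from a summit. Shares carry 95% Wilson intervals. Tests were two-sided Fisher's exact or exact McNemar tests with Benjamini-Hochberg adjustment and a threshold of 0.05 (Python 3.11.15, scipy 1.17.1), tested on simulated data. Named genes were the hosts of the 20 strongest peaks, hosts of 3 or more, up to 3 of each list, the 8 strongest peaks with a site, the largest rank ratios and the peaks beside each limit. Dys, CG11030, Blimp-1 and Kr-h1 were named after their values were seen. The test of first introns against deep introns is not used, since distance defined both sets. One further gene list is not reported here. Printed sequences came from the RefSeq release 6 assembly. A replicate was left out by taking, from the other, as many of the strongest peaks as the IDR list holds.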

Additional observations from a re-analysis of the deposited data

How the results depend on the processing

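Of 94 alternative values, 78 kept the direction and side of the threshold, or stayed within the set tolerance. The comparison of near-start with deep introns for the Ftz-F1 site passed in none of the settings, and its odds ratio, 0.932, crossed 1 in 9 of them: 1.05 to 1.15 with each replicate left out, 1.15 in the strongest 1980 peaks of the list, 1.04 with protein-coding starts and exons only, 1.00 with 1 peak per overlapping run, 1.03 with the middle of the peak and 1.03 between 1000 and 2000 bp, and 1.09 and 1.08 with windows of 50 and 200 bp each side. The number of peaks was 217 among the strongest 1980, 202 between 500 and 1000 bp and 225 between 1000 and 2000 bp, by construction. The share in the top sets of both replicates was 97.2% among the strongest 1980 and 62.3% when the overlap had to cover at least 50% of the peak. The nearest start was that of the host in 91.9% with protein-coding genes only. With a window of 50 bp, 3 motifs passed against control windows in place of 6. The cause of these shifts was not tested beyond the smaller sets that the alternatives define. The site against control, promoter and sub-threshold peaks kept their calls in every alternative run. The replicates form 1 group, so no comparison of groups paired by replicate was possible.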
